A study of Mus musculus with 8 samples.

Results

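The genes described here were the PDGF ligands Pdgfa, Pdgfb, Pdgfc and Pdgfd, the PDGF receptors Pdgfra and Pdgfrb, and the collagen receptors Ddr1 and Ddr2, which make 8 of the 14608 genes in the expression table. They were taken by name, after the contrast between the groups was known, so their values are selected on that contrast and are given as a description with no test. The samples were outflow tracts (OFT, the vessel through which the heart empties) of mouse embryos at embryonic day 11.5, with 4 libraries of genotype Control, titled WT, and 4 labelled Mib1V943F/+ Gata6STOP/+. Per the design text of the series each library pooled 3 individuals, whereas the study's methods give 3 pools per genotype, each of 4 pairs of OFT. The sources thus differ on the number of pools as well as their size, and n = 4 below counts libraries. The second genotype joins a missense allele in the RING domain of the ubiquitin ligase Mib1, which acts in cells that send Notch signals, with a null allele of the transcription factor Gata6. Poly(A) RNA was sequenced, and the values are CPM, read counts scaled to a common library size by the authors' TMM step.

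PDGF ligands are secreted dimers that bind a pair of receptor tyrosine kinases. Pdgfa and Pdgfc act mostly through Pdgfra, while Pdgfb and Pdgfd act mostly through Pdgfrb, and Pdgfc and Pdgfd are secreted in a latent form that proteases must cut. In the embryonic heart Pdgfra is known from mesenchyme, neural crest and epicardium-derived cells and Pdgfrb from mural cells, while Ddr1 and Ddr2 are tyrosine kinases that bind collagen, Ddr1 mostly in epithelia and Ddr2 mostly in mesenchyme.

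The reads on listed genes ranged from 10669420 in control replicate 2 to 30469165 in mutant-labelled replicate 3, so that 1 read was worth between 0.0325 and 0.0948 CPM. The lowest member value, that of Pdgfd in control replicate 2, rested on 61 reads. Control libraries 1 to 4 held 236, 279, 271 and 261 CPM of Gata6, against 213, 284, 276 and 224 CPM for mutant-labelled libraries 1 to 4. These ranges overlap (limma with Benjamini-Hochberg adjustment, adjusted p = 0.752, log2 fold change -0.08, two-sided exact permutation p = 0.543, where 0.0286 is the smallest p possible). Mib1 was at 122 ± 15.6 against 128 ± 6.62 CPM (SD, n = 4 each, exact permutation p = 0.486, and adjusted p = 0.746 in limma by Benjamini-Hochberg), which does not bear on the labels, as a missense allele need not change the RNA level. The groups are named by their labels, control-labelled and mutant-labelled. Mutant-labelled replicate 2 stood apart from its group, since its read counts differed from those of the other mutant-labelled libraries by a chi-square per gene of 30.8 to 33.7, against 9.38 to 12.4 among the other mutant-labelled libraries.

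Pdgfc and Ddr2 were the members whose values did not overlap between the groups, both higher in the mutant-labelled libraries, by 31.1% and 41.5% of the control mean. Pdgfrb was higher by 17.9% and Ddr1 lower, at 0.888 of the control mean, and each overlapped in its group ranges. With the trend of each library with gene GC content removed, Pdgfrb was without overlap as well, which makes 3 members. Ddr1 did not overlap without control replicate 1 or mutant-labelled replicate 3. The share of all genes without overlap in those settings is not given here, and smaller groups separate more easily. These additions are a description only. Pdgfa, Pdgfb, Pdgfd and Pdgfra differed by less than the spread between replicates. Of the 8 members, 2 were higher without overlap, where 3.2% of all genes were, and 0 were lower without overlap, where 3.9% of all genes were. In limma with Benjamini-Hochberg adjustment 0 of the 14608 genes, 0% of the table, passed an adjusted p of 0.05 (smallest adjusted p = 0.124), and 1763 genes had an unadjusted p under 0.05, with 1121 without control replicate 2 and 1172 without control replicate 3. Fold changes are mutant-labelled minus control-labelled on the scale of log2(CPM + 0.5), which understates the change of low genes.

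**Figure D1:**
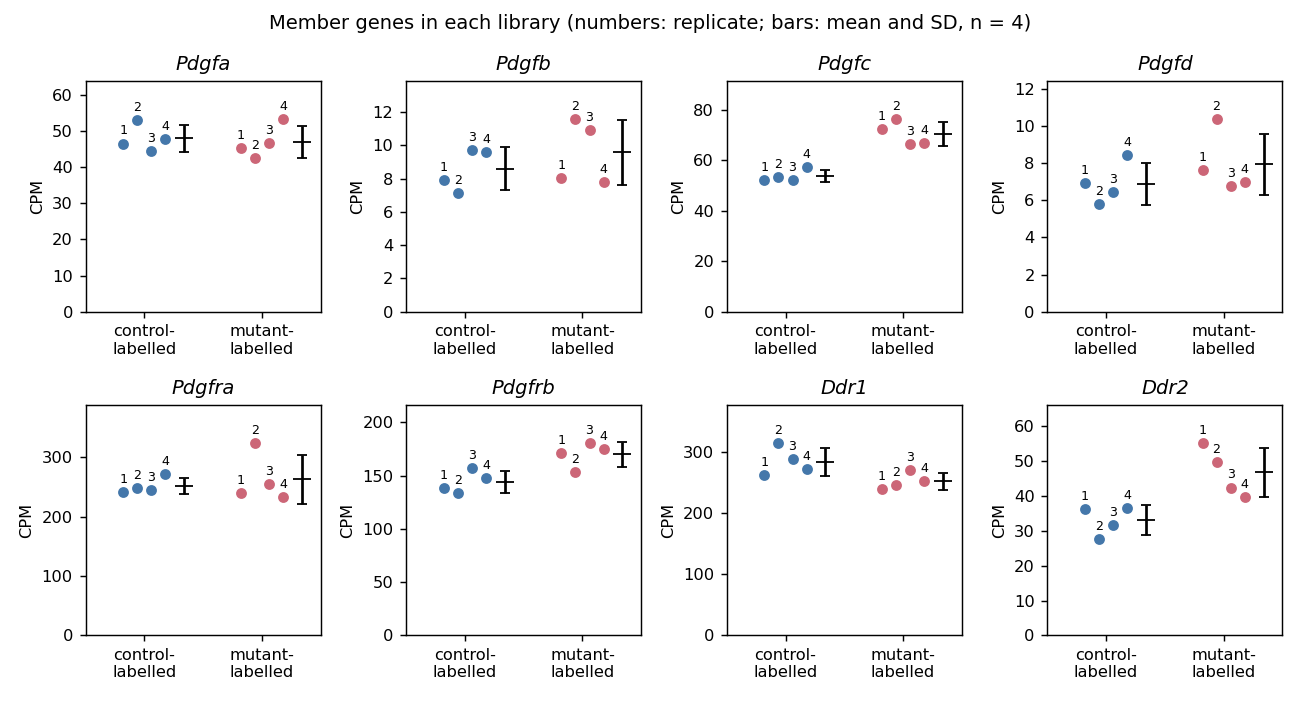
CPM of each member in the 4 control-labelled and 4 mutant-labelled libraries, with points numbered by replicate and bars for the mean and SD (n = 4). For Pdgfc the mutant-labelled points lie between 66.5 and 76.2 CPM and the control points between 52.1 and 57.2 CPM, and for Ddr2 the closest points are 36.6 and 39.6 CPM.

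Among the ligands, Pdgfc (ENSMUSG00000028019, chr3:81036416-81214040, plus strand, GRCm38), a ligand of Pdgfra, had levels of 52.4, 53.4, 52.1 and 57.2 CPM for controls 1 to 4, against 72.4, 76.2, 66.5 and 66.9 CPM for mutant-labelled libraries 1 to 4. The control libraries lay close together, and every mutant-labelled library was above all of them, with replicates 1 and 2 the highest. The log2 fold change was 0.39 (SE 0.07, 95% confidence interval 0.23 to 0.54), and it ran from 0.35 to 0.42 when any single library was left out.

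Pdgfa (ENSMUSG00000025856, chr5:138976014-138997370, minus strand), the other ligand of Pdgfra, gave 46.5, 53.0, 44.5 and 47.8 CPM for controls 1 to 4, against 45.2, 42.6, 46.6 and 53.2 CPM for the mutant-labelled ones. The groups covered nearly the same range, and the log2 fold change of -0.03 (SE 0.08, 95% confidence interval -0.22 to 0.15) turned positive when control replicate 2 (0.02) or mutant-labelled replicate 2 (0.01) was left out, and was -0.09 without mutant-labelled replicate 4. Since both ligands are read in the same library, their ratio does not depend on the scaling of the library. The reads of Pdgfc over those of Pdgfa, the same ratio as that of their CPM, were 1.13, 1.01, 1.17 and 1.197 for controls 1 to 4, against 1.60, 1.79, 1.43 and 1.26 for mutant-labelled libraries 1 to 4. The ratio was above every control value in every mutant-labelled library, and mutant-labelled replicate 4 came closest to the control libraries.

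Pdgfb (ENSMUSG00000000489, chr15:79995874-80014977, minus strand), the ligand through which endothelium recruits mural cells, was among the lowest members. Its levels were 7.93, 7.11, 9.72 and 9.60 CPM for controls 1 to 4, against 8.03, 11.6, 10.9 and 7.81 CPM for the mutant-labelled ones. Mutant-labelled replicates 2 and 3 were above the control libraries and replicates 1 and 4 were among them (log2 fold change 0.14, SE 0.15). Leaving out mutant-labelled libraries 1, 2, 3 and 4 in turn gave 0.21, 0.05, 0.07 and 0.23, and leaving out control libraries 1 to 4 gave 0.11, 0.06, 0.20 and 0.19. Pdgfd (ENSMUSG00000032006, chr9:6168584-6378850, plus strand), the latent ligand of Pdgfrb, ranged from 5.78 to 8.40 CPM in the control and from 6.76 to 10.3 CPM in the mutant-labelled libraries, with replicate 2 alone above the control range. Its log2 fold change of 0.18 (SE 0.15) was 0.06 without mutant-labelled replicate 2, 0.11 without control replicate 2, 0.28 without control replicate 4 and 0.05 once the trend of each library with gene GC content was removed, while that correction moved Pdgfb to 0.26.

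Of the PDGF receptors, Pdgfrb (ENSMUSG00000024620, chr18:61045150-61085061, plus strand), the mural cell receptor, had levels of 139, 133, 157 and 148 CPM for controls 1 to 4, against 171, 153, 180.4 and 175 CPM for mutant-labelled libraries 1 to 4. The overlap came from a single pair of libraries, control replicate 3 and mutant-labelled replicate 2. Leaving out either of them therefore had to separate the groups, and adds nothing to that. The log2 fold change was 0.24 (SE 0.07, 95% confidence interval 0.08 to 0.40), and 0.30 with the GC correction.

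Pdgfra (ENSMUSG00000029231, chr5:75152292-75198215, plus strand), the receptor of Pdgfa and Pdgfc, gave 242, 249, 246 and 272 CPM for controls 1 to 4, against 239.9, 324, 254 and 234 CPM for the mutant-labelled ones. Mutant-labelled replicate 2 was far above the other 7 libraries, which shared one range. The log2 fold change of 0.05 (SE 0.10, 95% confidence interval -0.16 to 0.26) became -0.05 without that library and ran up to 0.10 (without mutant-labelled replicate 4) when another library was left out. The reads of Pdgfrb over those of Pdgfra were 0.574, 0.536, 0.637 and 0.544 for controls 1 to 4, against 0.714, 0.472, 0.709 and 0.749 for mutant-labelled libraries 1 to 4, where replicate 2 was below every control library and the others were above every control library.

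Of the collagen receptors, Ddr2 (ENSMUSG00000026674, chr1:169972307-170110762, minus strand), the receptor of mesenchymal cells, had levels of 36.2, 27.6, 31.6 and 36.6 CPM for controls 1 to 4, against 55.1, 49.8, 42.4 and 39.6 CPM for mutant-labelled libraries 1 to 4. All mutant-labelled libraries were above all control libraries, by the most in replicates 1 and 2 and by little in replicate 4 (log2 fold change 0.49, SE 0.12, 95% confidence interval 0.23 to 0.75). Without any single library the log2 fold change lay between 0.41 and 0.57.

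Ddr1 (ENSMUSG00000003534, chr17:35681567-35704621, minus strand), the receptor best known from epithelia, gave 263, 315, 288 and 272 CPM for controls 1 to 4, against 239, 246, 272 and 253 CPM for the mutant-labelled ones. Control replicate 2, the shallowest library, was the highest, and mutant-labelled replicate 3 was within the control range. The log2 fold change of -0.17 (SE 0.07) shrank to -0.06 once the trend of each library with gene GC content was removed, so the size of this difference depends on that step. The reads of Ddr2 over those of Ddr1 were 0.138, 0.0876, 0.110 and 0.135 for controls 1 to 4, against 0.230, 0.202, 0.156 and 0.156 for mutant-labelled libraries 1 to 4. This ratio did not overlap between the groups, and its mean was 1.59 times as high in the mutant-labelled libraries, by CPM and before the GC correction. That correction brings the log2 fold changes of Ddr2 and Ddr1 closer together, at 0.43 and -0.06.

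Genes that overlap a member on the opposite strand and are listed were 6330403L08Rik at Pdgfa (10.5 to 13.8 CPM) and 3110045C21Rik at Ddr2 (1.76 to 2.94 CPM). The libraries were made with a directional kit, and whether the counting used strand is not given in the sources used here, so reads of these pairs could have been mixed.

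Compared per kb of exon, Ddr1 had the highest level, with a mean of 56.2 ± 5.13 CPM per kb over all 8 libraries (SD). Pdgfrb followed at 28.7 ± 3.14 and Pdgfra at 25.7 ± 2.91 CPM per kb, and their ranges over the libraries overlapped. The ligands of Pdgfra were next, Pdgfa at 15.2 ± 1.23 and Pdgfc at 12.2 ± 1.88 CPM per kb. The ranges of these ligands did not overlap among the control libraries, where Pdgfc was the lower, and overlapped over all libraries through the mutant-labelled ones, with Pdgfc above Pdgfa in replicate 2. Ddr2 was at 4.30 ± 0.983, Pdgfd at 2.35 ± 0.450 and Pdgfb at 2.18 ± 0.387 CPM per kb, each overlapping its neighbour. So both receptors exceeded every ligand per kb, and the ligands of Pdgfra exceeded those of Pdgfrb. With the length of the longest coding transcript in place of all exons, an alternative chosen after seeing the data, Pdgfra came before Pdgfrb and Pdgfb before Pdgfd, the ranges of Pdgfrb and Pdgfa overlapped, and the rest of the order was kept.

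**Figure D2:**
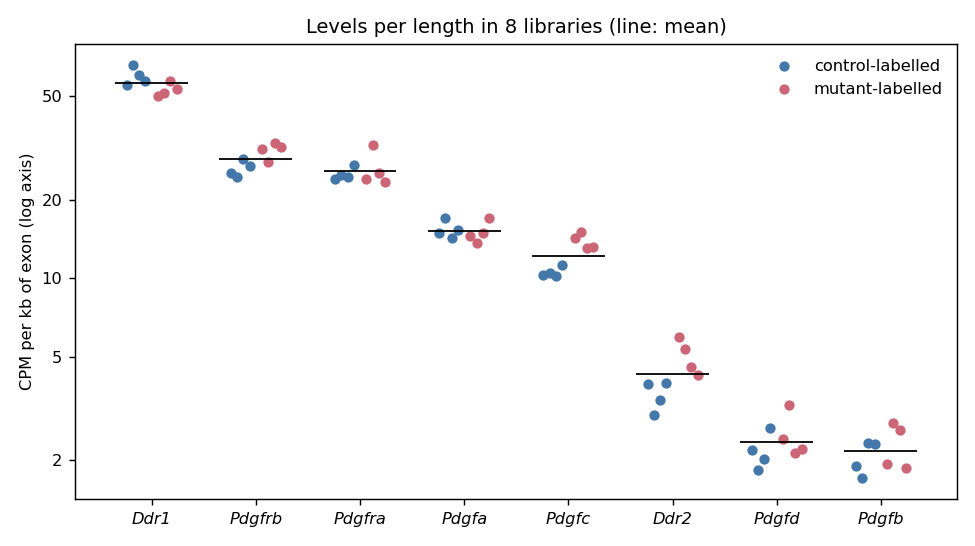
Level of each member in CPM per kb of exon on a log axis, 1 point per library and a line at the mean of the 8 libraries. Ddr1 lies between 50.1 and 65.97 CPM per kb, above all other members, and Pdgfb and Pdgfd lie lowest, between 1.71 and 3.28 CPM per kb.

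After the group means were taken off, 14 of the 28 pairs of members had a negative Pearson r over the 8 libraries and 14 a positive one, and Pdgfa and Ddr1 were each negative with 5 of the other members. Among the strongest pairs, Pdgfc correlated with Pdgfd (Pearson r = 0.87, Spearman rho 0.71), and Ddr1 with Ddr2 negatively (r = -0.84, rho -0.86), as a description only. These correlations used values without the GC correction, and GC content was 59.7% for Ddr1 and 45.1% for Ddr2. The part of the GC trend in them was not tested. Pdgfc and Pdgfrb had r = -0.53 and rho -0.71. Pdgfra and Pdgfd had r = 0.83 but rho 0.38, and both were highest in mutant-labelled replicate 2. In the same measure the genes most like Pdgfc, among the 10265 others that averaged 10 CPM or more, were Foxp2 (r = 0.972), Rcbtb2 (r = 0.969) and Eloc (r = 0.968). For Ddr2 they were Cspp1 (r = 0.986), Rnf169 (r = 0.965) and Eif2b5 (r = 0.957), and for Pdgfrb Atrip (r = 0.956), Gm49338 (r = 0.947) and Rfxap (r = 0.945). With 8 libraries and 10265 genes, values this high are the top of a long list, and genes read in the same libraries share their depth and tissue makeup.

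Promoter windows of RefSeq (GRCm38.p6, 250 bases before to 50 after a transcription start) were found for 6 of the 8 members. There were 10 windows in all. Pdgfb was not matched. Pdgfrb was not looked up, because its chromosome was left out of the search by design. All 10 windows were searched on both strands for GATAA, the core letters bound by GATA factors, and for TGGGAA, those of the Notch effector RBPJ. GATAA was found in 2 of the 10 windows (25.4% of 32851 promoters of the same length hold it) and TGGGAA in 3 of them (25.6% of promoters). The windows of Pdgfc and Ddr2 are shown because these members differed without overlap, and those of Pdgfd and Ddr1 because they hold both motifs. Capitals mark the motif letters, and the windows of Pdgfc (chr3:81036166-81036465, plus strand) and Ddr2 (chr1:170088895-170089194, minus strand) have none.
Pdgfc: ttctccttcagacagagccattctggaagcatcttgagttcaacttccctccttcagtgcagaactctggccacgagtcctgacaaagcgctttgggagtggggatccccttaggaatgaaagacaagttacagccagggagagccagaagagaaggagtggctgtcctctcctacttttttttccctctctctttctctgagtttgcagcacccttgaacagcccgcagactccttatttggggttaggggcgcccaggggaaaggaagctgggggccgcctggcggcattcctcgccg
Ddr2: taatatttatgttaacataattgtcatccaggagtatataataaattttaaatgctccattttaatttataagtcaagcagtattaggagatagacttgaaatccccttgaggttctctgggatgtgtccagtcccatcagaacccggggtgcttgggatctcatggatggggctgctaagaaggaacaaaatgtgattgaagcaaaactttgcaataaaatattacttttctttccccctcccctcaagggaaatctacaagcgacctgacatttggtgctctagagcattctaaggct
Pdgfd: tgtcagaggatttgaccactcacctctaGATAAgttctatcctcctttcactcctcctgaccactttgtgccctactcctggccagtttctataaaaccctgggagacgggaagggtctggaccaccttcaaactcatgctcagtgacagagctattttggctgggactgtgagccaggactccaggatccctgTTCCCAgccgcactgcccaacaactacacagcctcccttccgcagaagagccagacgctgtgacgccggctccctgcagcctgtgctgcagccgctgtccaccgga
Ddr1: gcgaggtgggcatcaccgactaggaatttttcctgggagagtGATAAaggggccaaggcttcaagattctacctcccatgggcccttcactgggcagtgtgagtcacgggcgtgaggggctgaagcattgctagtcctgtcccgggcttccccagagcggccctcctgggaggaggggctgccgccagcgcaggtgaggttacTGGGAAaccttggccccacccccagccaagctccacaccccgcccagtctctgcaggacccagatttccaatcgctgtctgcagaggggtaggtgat
In Pdgfd (chr9:6168236-6168535, plus strand) GATAA begins 222 bases and the reverse complement of TGGGAA 56 bases before the start. In Ddr1 (chr17:35701995-35702294, minus strand), 1 of 4 windows of that gene, GATAA begins 208 and TGGGAA 47 bases before the start. The other window with TGGGAA belongs to Pdgfa (chr5:138994232-138994531, minus strand). The RefSeq start of Ddr2 lies 21818 bases inside the end of the annotated gene. These matches describe letters only, and binding was not measured.

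The pathway around the members was followed with 8 lists of 137 genes, of which 129 were listed. In limma 0 of the 129 passed an adjusted p of 0.05, while 10 were higher and 12 lower with the mutant label at an unadjusted p under 0.05. These are 7.75% and 9.30% of the 129, where 5.45% of all 14608 genes were higher and 6.62% lower at that level. Without overlap between the groups, 4 of the 129 were higher and 5 lower, where 3.2% and 3.9% of all genes were. The median log2 fold change of the 129 genes was 0.02, against 0.00 over all genes, with genes on both sides. Higher and lower in the following counts mean an unadjusted p under 0.05, and where a count of 5 or fewer takes in genes outside the naming rule, they were named after their values were seen.

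The list of ligand processing and binding had 3 genes higher (Nrp2, Plat and St14) and 1 lower among 13 listed. The lower gene was Pcsk6, a proprotein convertase, at 53.3 ± 4.98 against 43.6 ± 2.41 CPM (SD, n = 4 each), without overlap (log2 fold change -0.29, SE 0.08, adjusted p = 0.258 in limma with Benjamini-Hochberg adjustment). Nrp2, a co-receptor of semaphorins and VEGF, had a log2 fold change of 0.21 (adjusted p = 0.351, limma with Benjamini-Hochberg adjustment). Sparc, a matrix protein that binds PDGF and the most abundant gene of the list at 1291 CPM, was at -0.01. Among 13 listed relatives of the family, 2 were higher (Kitl and Pgf) and 2 lower (Vegfa and Vegfb). Vegfb, a ligand of the receptor Flt1, gave 82.2, 110.5, 99.4 and 79.9 CPM for controls 1 to 4, against 71.7, 57.1, 69.5 and 74.7 CPM for the mutant-labelled ones, again without overlap (log2 fold change -0.44, SE 0.11, adjusted p = 0.236, limma with Benjamini-Hochberg adjustment). Kitl, the ligand of the receptor Kit, had a log2 fold change of 0.30 and Vegfa, the most abundant of these genes, of -0.17, with overlapping groups for both. The 4 genes called in the first list became 2 without control replicate 1 or 4 and 1 without mutant-labelled replicate 3, and the 4 among the relatives became 2 without control replicate 2, control replicate 3 or mutant-labelled replicate 1.

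Downstream of the receptors, 1 of 37 signal transducers was higher and 2 were lower (Stat5b and Hras), a total of 3 that became 5 without control replicate 4 or mutant-labelled replicate 1. Stat5b, a transcription factor activated by tyrosine kinases, had a log2 fold change of -0.20 without overlap, and the abundant kinase Akt1 was at -0.17 with overlap. Of 18 negative regulators 0 were higher and 2 lower, the feedback inhibitor Spry2 (-0.18) and the ERK phosphatase Dusp6 (-0.18), while the ubiquitin ligase Cbl, the most abundant, was at -0.02. Without control replicate 1 the number of pathway genes at an unadjusted p under 0.05 was 14 in place of 22. The count of 2 among the negative regulators became 0, 1, 4 and 2 when controls 1 to 4 were left out in turn, and 1, 2, 1 and 2 when mutant-labelled libraries 1 to 4 were. It was 0 with the replicate number as a block in the fit and 3 with the GC correction. Of 18 listed immediate-early and serum response genes 0 were higher and 1 was lower, the serum response factor Srf, at 108 ± 16.3 against 87.5 ± 5.81 CPM (SD, n = 4 each, log2 fold change -0.29). With the GC correction this count was 0, and it was 2 without control replicate 2, without control replicate 3 and without replicate 3 of the mutant label. Jun, the most abundant, had a log2 fold change of -0.23 and Zfp36, an RNA-binding protein, of -0.19, and the groups overlapped for both.

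**Figure D3:**
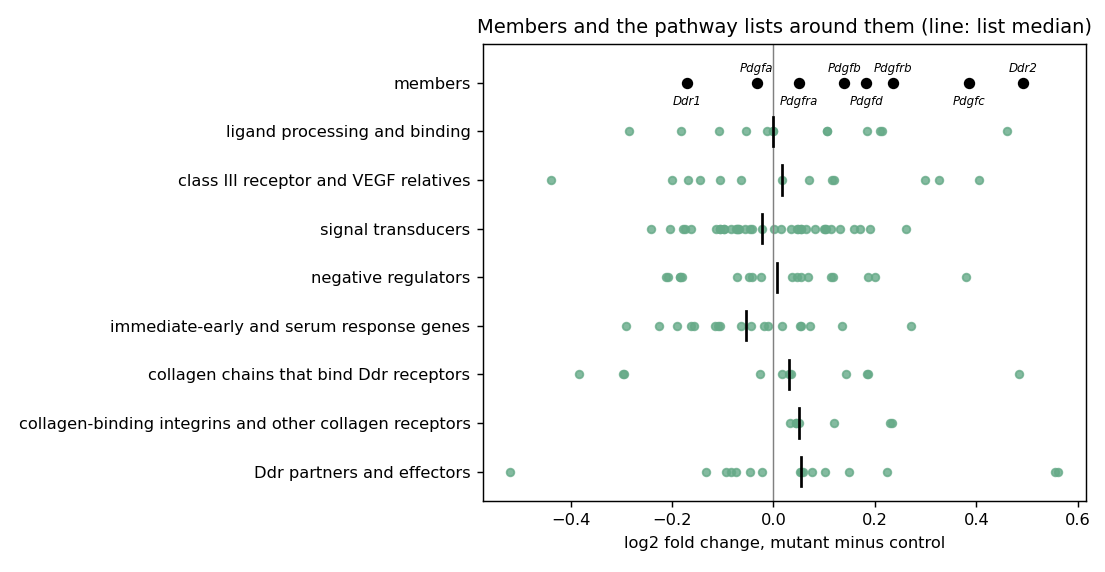
log2 fold change (mutant-labelled minus control-labelled) of the 8 members in the top row and of the listed genes of 8 pathway lists below, 1 point per gene and a line at each list's median. The list medians lie between -0.05 and 0.05, while Pdgfc is at 0.39 and Ddr2 at 0.49.

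For the Ddr receptors, 1 of 11 listed collagen chains was higher and 3 were lower (Col2a1, Col4a1 and Col4a2). Col8a1, a chain of a network collagen of vessel walls, gave 5.98, 5.41, 5.49 and 6.05 CPM for controls 1 to 4, against 7.98, 7.28, 8.91 and 8.76 CPM for the mutant-labelled ones, without overlap (log2 fold change 0.48, SE 0.11, adjusted p = 0.212, limma with Benjamini-Hochberg adjustment). Col4a2, of the basement membrane, was at 550.0 ± 65.7 against 445 ± 20.9 CPM (SD, n = 4 each) with control replicate 4 inside the mutant-labelled range. Col2a1 had a log2 fold change of -0.38 and Col4a1 of -0.30. Of the chains 1 was higher and 1 lower without overlap, where 3.2% and 3.9% of all genes were. Col3a1, a fibrillar collagen and the most abundant chain, had a log2 fold change of 0.14 with overlap. Of 7 listed integrins and other collagen receptors 0 were higher and 0 lower, with Itgb1, the shared beta chain, at 0.12 and Itga2 at 0.23. Among 16 listed Ddr partners and effectors 3 were higher (Mmp2, Runx2 and Lox) and 1 lower. They included the collagenase Mmp2 (0.22) and the membrane protein Tm4sf1 (-0.52), both with overlapping groups, and Runx2 and Lox, both at 0.56. Of this list 1 gene was higher and 0 were lower without overlap, where 3.2% and 3.9% of all genes were. Myh10, a nonmuscle myosin and the most abundant of the list, was at 0.05. The total of 4 called in this last list was 1 without control replicate 1 or mutant-labelled replicate 3, and 2 without control replicate 2 or 3, mutant-labelled replicate 1 or 4, or with quantile normalization. The 0 among the integrins was 1 with the GC correction and without mutant-labelled replicate 1.

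Markers of cell types moved between the same groups. Of 16 cardiomyocyte markers, 15 were lower at an unadjusted p under 0.05 and 0 passed the adjusted p in limma. Their median log2 fold change was -0.35, and their summed level was 36321, 34601, 34670 and 30904 CPM for controls 1 to 4, against 26649, 24690, 26141 and 28831 CPM for mutant-labelled libraries 1 to 4. The groups did not overlap, and Myh7, the most abundant marker, had a log2 fold change of -0.39. The summed level of 7 listed platelet and megakaryocyte markers, a source of PDGF known in the adult, was 28.4 to 51.8 CPM in the control and 18.1 to 28.2 CPM in the mutant-labelled libraries, with 5 markers lower, among them Itga2b, the most abundant, and Gp1bb not listed. The median log2 fold change of these markers was -0.51. Of the 7 listed, 3 averaged under 3 CPM. Without overlap 0 were higher and 1 was lower, where 3.2% and 3.9% of all genes were. The closest sums were 28.4 CPM in control replicate 1 and 28.2 CPM in mutant-labelled replicate 1. The highest sum was that of control replicate 2, the shallowest library. In bulk tissue fewer cells of a type and less RNA per cell cannot be told apart. The part of these shifts in the values of Pdgfc, Pdgfrb, Ddr1 and Ddr2 was not tested.

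Cushion mesenchyme, in which Pdgfra and Ddr2 are known, had 0 of 12 markers higher and 0 lower, with a median log2 fold change of 0.07 and Vcan as the most abundant marker. The summed level was 4339.9, 4166, 4237 and 4529 CPM for controls 1 to 4, against 3798, 5177, 4690.3 and 4634 CPM for the mutant-labelled libraries, so that replicate 2, which had the highest Pdgfra and Pdgfc, was also highest here. Each member was also set against the mean log2 level of these 12 markers in its own library, an alternative chosen after seeing the data. On that scale Pdgfc gave -0.92, -1.09, -1.04 and -1.06 for controls 1 to 4, against -0.53, -0.68, -0.95 and -0.91 for mutant-labelled libraries 1 to 4, a difference of 0.26. Control replicate 1 then fell inside the mutant-labelled range. Ddr2 gave -1.45, -2.03, -1.75 and -1.70 for controls 1 to 4, against -0.92, -1.29, -1.59 and -1.66 for the mutant-labelled ones, a difference of 0.37, with the same control library above mutant-labelled replicates 3 and 4. On that scale 0 of the 8 members were without overlap, and of all genes 0.288% were higher and 3.16% lower without overlap, where 3.2% and 3.9% were by CPM. Setting against the markers shifts all genes of a library by the same amount, so the lost separation is not particular to the members.

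Smooth muscle and mural markers, the cells of Pdgfrb, were summed at 2825 to 3256 CPM in the control and 2881 to 3328 CPM in the mutant-labelled libraries, with 3 of 10 markers higher (Myh11, Rgs5 and Kcnj8), 1 lower (Abcc9) and Acta2 the most abundant. Of 12 endothelial and endocardial markers 0 were higher and 2 lower (Emcn and Npr3), with sums of 1001 to 1213 and 1024 to 1112 CPM and Cdh5 the most abundant. Of 12 epithelial and endodermal markers 2 were listed, Krt8 and Krt18, and Epcam, Cdh1, Foxa2 and Shh were among the 10 that were not, while Ddr1 had the highest level of the members. The sums of Krt8 and Krt18 were 69.1 to 89.0 CPM in the control and 75.2 to 85.0 CPM in the mutant-labelled libraries. Second heart field markers had 3 of 9 listed genes higher (Isl1, Tbx1 and Tlx1), with Hand2 the most abundant and Fgf8 among those not listed, and neural crest, glia and neuron markers 2 of 8 (Stmn2 and Elavl4), with Erbb3 the most abundant and Ret lowest at 1.16 CPM. The sums of both lists overlapped between the groups, while their median log2 fold changes were 0.25 and 0.14 in that order. Hand2, which leads the first sum, was at -0.06. In each of the second heart field, neural crest and smooth muscle lists, 2 markers were higher and 0 lower without overlap. Of all genes 3.2% were higher and 3.9% lower without overlap.

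In the remaining lists the sums overlapped between the groups. Erythroid markers, led by Hbb-y, summed to 1845 to 3762 CPM in the control and 1548 to 5767 CPM in the mutant-labelled libraries, with 0 of 12 higher or lower. Epicardial markers, led by Upk3b, summed to 389 to 503 and 369.7 to 626 CPM in the same order, with 1 of 8 lower (Msln), and macrophage markers, led by Csf1r, to 68.5 to 85.1 and 67.9 to 101 CPM, with 2 of 12 lower (Cd68 and Lyz2). Mutant-labelled replicate 2 was the highest of the 8 libraries in each of these sums, as it was for Pdgfra, Pdgfb, Pdgfc and Pdgfd.

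**Figure D4:**
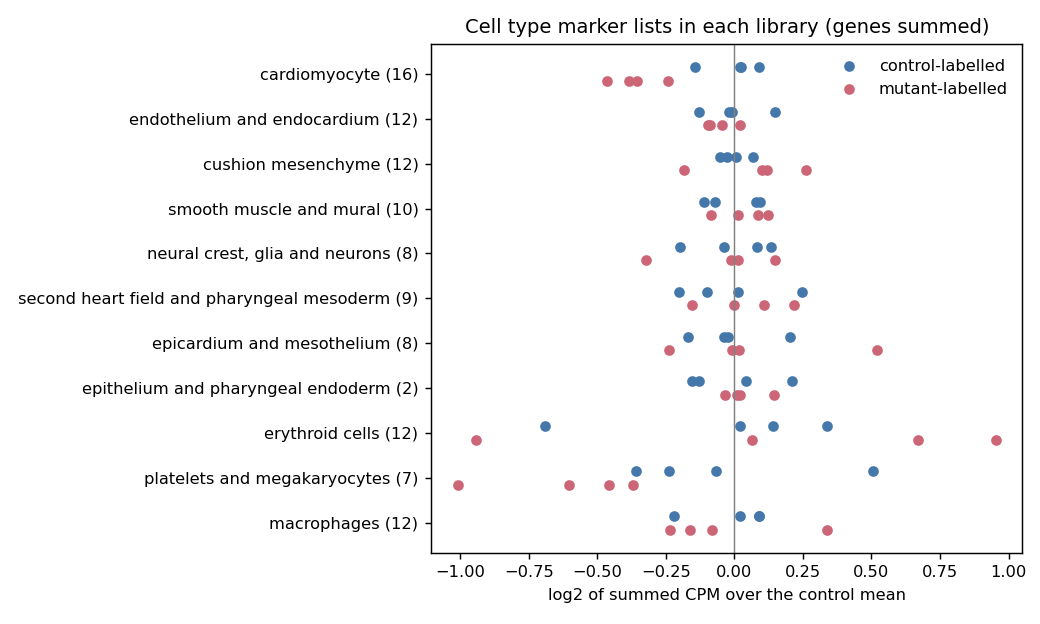
Summed CPM of each cell type list in each library, as log2 of its ratio to the control mean, with the number of listed genes in brackets. The mutant-labelled points of the cardiomyocyte list all lie below the control points, and those of the cushion mesenchyme list lie on both sides of them.

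**Figure D5:**
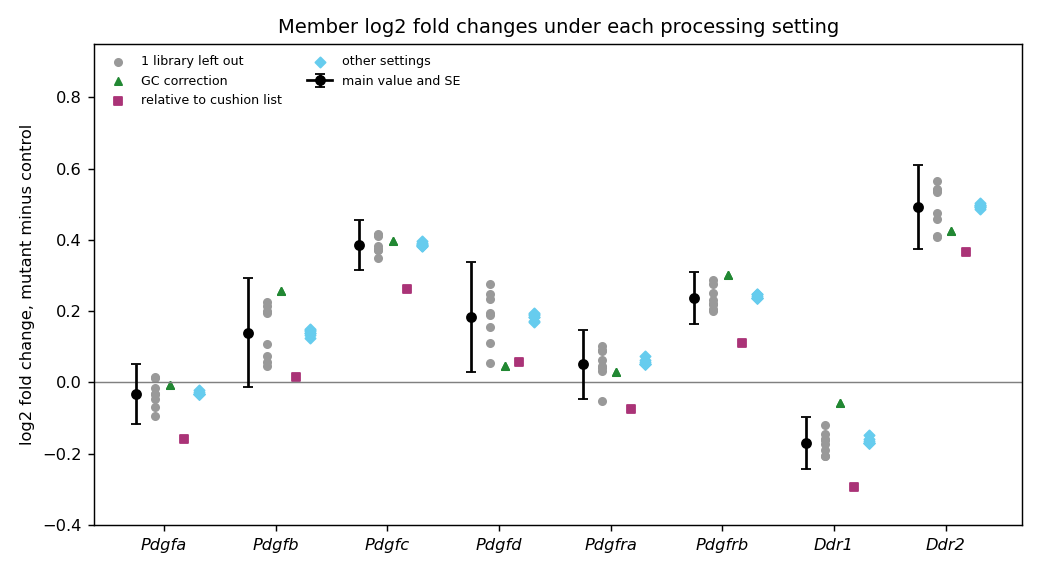
log2 fold change of each member with its SE in black and, beside it, the values with each library left out, with GC correction, relative to the cushion mesenchyme markers and under the other settings. Pdgfc stays between 0.26 and 0.42 and Ddr2 between 0.37 and 0.57, while Ddr1 shrinks to -0.06 with GC correction.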

How the data were processed

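According to the study's methods, the authors trimmed 60 bp reads with cutadapt, counted them with RSEM on GRCm38, required 1 CPM in 3 or more libraries, and applied TMM scaling in edgeR. The deposited values are CPM for 14608 genes with 1 column per library. The members and the gene lists were chosen with earlier results of these data known. All 8 libraries entered the fit reported here (4 against 4, group only), and alternatives left out 1 library or added the replicate block. limma 3.58.1 on R 4.3.3 (lmFit and eBayes with trend, two-sided, Benjamini-Hochberg over 14608 genes, threshold 0.05, checked on simulated data) was run on log2(CPM + 0.5), and scipy 1.17.1 gave the exact permutation tests over 70 relabellings. Each column holds whole multiples of a step taken as 1 read (tolerance 0.01 reads), used for depth, for the chi-square between replicates and for ratios of members, and in no fit. Depth limits counting precision, and intervals cover the spread between libraries. Genes were placed and measured by GENCODE exons of GRCm38, with 14600 of the 14608 genes found by identifier. Besides the members, Gata6 and Mib1, the genes named are, from each pathway list, the most abundant and the 2 with the smallest p at a mean of at least 5 CPM, and, from each cell type list, the most abundant and markers near 0 or not listed. A few genes that this rule or a count takes in are not reported here. Likeness used Pearson's r at a mean of at least 10 CPM. Each library has its own sample label, and the design text of the series describes pools, so p-values measure the spread between libraries. Alternatives changed the pseudocount (0.1 and 1), the filter (5 CPM), the scaling, GC content, the replicate block and single libraries.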

Additional observations from a re-analysis of the deposited data

Results flagged for a closer look

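Of 124 groups of 4 libraries examined, 6 had 1 library far from the other 3, and chance flags about 1 in 20 groups. In mutant-labelled replicate 2 the reads of Pdgfrb over those of Pdgfra were 0.472, below the rest of its group. The same library was set apart from its group for Dusp6 (46.3 CPM), for the macrophage gene Csf1r (26.0 CPM) and for Fcgr1, the lowest macrophage marker (2.94 CPM), each time as the highest. The reads of Pdgfd over those of Pdgfb were 0.619 in mutant-labelled replicate 3, the lowest of its group. Zfp36 was at 22.3 CPM in control replicate 2, the shallowest library and the highest of its group.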

How the results depend on the processing

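The count of genes past an adjusted p of 0.05 in limma was 0 under every alternative run, and the number at an unadjusted p under 0.05, 1763, ran from 1121 (without control replicate 2) to 2163 (without control replicate 4), with 1172 without control replicate 3. Of 129 pathway genes, 22 were at that level, and 14 (without control replicate 1) to 23 when 1 library was left out. Over 18 alternatives each, Pdgfb, Pdgfc, Pdgfd, Pdgfrb, Ddr1 and Ddr2 kept the sign of their log2 fold change, and Pdgfa and Pdgfra kept it in 16. Ddr1 was at -0.057 with GC correction, alone or with the replicate block, and between -0.21 and -0.12 with 1 library left out. The number of members without overlap, 2, was 3 with GC correction and 2 to 3 with 1 library left out. The share of all genes without overlap in those settings is not given here, so the rise to 3 is a description only. With 1 library left out, Pdgfa ran from -0.09 to 0.02, Pdgfc from 0.35 to 0.42 and Pdgfrb from 0.20 to 0.29. Pdgfb then ran from 0.05 (without mutant-labelled replicate 2) to 0.23 (without mutant-labelled replicate 4). Counts of single pathway lists, of 0 to 4 genes, moved by more than 1.5 times in 29 of their comparisons with an alternative. Of the alternatives chosen after seeing the data, values relative to the cushion mesenchyme markers and rescaling over the genes outside the cardiomyocyte list move all genes of a library nearly alike. On the first, log2 fold changes of all genes fall together (Pdgfa to -0.16, Pdgfc to 0.26, Pdgfrb to 0.11 and Ddr1 to -0.29) and 0 members are without overlap, so neither says anything of the part of those lists in the members. The causes were not tested.

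The labels number the libraries 1 to 4 in both groups. Same-numbered libraries did not deviate together (r = 0.01, -0.27, 0.05 and -0.01), and no library correlated best with its own number, so the numbers do not pair them. With the replicate block 0 genes passed and 1304 were at an unadjusted p under 0.05. The count tests edgeR (quasi-likelihood and likelihood ratio) and DESeq2 were planned on recovered reads and were not run. Pdgfb and Pdgfd, on 61 to 336 reads, are the members that depth limits most.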
